A study of Caenorhabditis elegans with 2 samples.

Results

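Cytosolic ribosomal protein genes of the nematode Caenorhabditis elegans were examined in chromatin immunoprecipitation followed by sequencing (ChIP-seq) for the nuclear hormone receptor NHR-27. The genes are the protein-coding genes of the Ensembl WBcel235 annotation whose symbol begins with rpl- or rps- and a number, or with rla-, and they number 81 of 19985. By symbol alone, 50 of these were counted as large-subunit genes (rpl- and rla-) and 31 as small-subunit genes (rps-). The study holds 1 group of 2 libraries, labelled as biological replicates 1 and 2, from whole young adult worms at 78 h with both sexes pooled, synchronized as starved first-stage larvae. All worms were of strain OP208, which carries the allele unc-119(ed3) III and the transgene wgIs208. The transgene supplies the receptor fused to green fluorescent protein, and antibody to that protein was used for the immunoprecipitation. A further label note names the tagged protein NHR-270, so the identity of the receptor rests on the labels that name nhr-27. What drives the transgene and how strongly the worms express it are not given in the sources used here. No precipitation from worms without the transgene and no second condition was analysed here.

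Ribosomal proteins assemble with ribosomal RNA into a large subunit, which joins amino acids into protein, and a small subunit, which reads the messenger RNA. Their genes are transcribed strongly in growing tissues and in step with each other, since the subunits need most of their proteins in equal numbers. NHR-27 belongs to the nuclear hormone receptors, transcription factors that bind DNA through zinc fingers and that form an unusually large family in worms. Many worm transcripts receive a spliced leader at their 5′ end, so an annotated 5′ end can be a splice site that lies downstream of where transcription starts.

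The deposited data are lists of genomic regions, each with a summit and a signal value with no stated unit. The pooled list and the lists of replicates 1 and 2 each hold 30000 regions. A further list holds the 393 thresholded regions, those that passed the authors' irreproducible discovery rate step, which filters regions by how reproducibly they rank. The thresholded regions were also the 393 highest regions of the pooled list, with a pooled signal of at least 92.1. A thresholded region need not rank alike in the replicates' own lists: that of rpl-12 ranked 3014 in replicate 1 and 223 in replicate 2. Of the 7 at ribosomal protein genes, 5 were among the 393 highest of both replicates. A gene was counted as listed when a pooled summit lay in its promoter window, which ran from 1000 bp before to 200 bp after an annotated 5′ end. Its strongest region is the listed one with the highest signal. The pooled list is labelled as holding peaks and background, so a listed region is not by itself a site of binding. Among the strongest regions of ribosomal protein genes, the deposited −log10 q value ran from 2.59 at rpl-3 to 0.0268 at rpl-26. It was 0.867 at rps-11 (pooled rank 1137). Read depth is unknown, and no test was run: genes are not replicates, and the intervals below cover counting error over genes only.

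Of the 81 ribosomal protein genes, 54 were listed (66.7%, exact binomial 95% interval 55.3% to 76.8%), against 36.4% of all protein-coding genes. A thresholded summit lay in the window of 7 ribosomal protein genes (8.64%, exact 95% interval 3.55% to 17%), against 1.01% of all protein-coding genes. Among listed genes the share was 7 of 54 ribosomal protein genes (13.0%, exact 95% interval 5.37% to 24.9%), against 2.76% of all listed genes. The 7 were rpl-3, rpl-15, rpl-20, rpl-35 and rpl-12 of the large subunit, and rps-1 and rps-26 of the small subunit. In a narrower window, from 300 bp before to 100 bp after the 5′ end, 23 ribosomal protein genes were listed, against 17.1% of all genes, and 4 of the 23 had a thresholded summit (17.4%), against 3.04% of all listed genes. In whole worms, fewer cells with the receptor at a site and less receptor there per cell cannot be told apart.

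The rank curves show that ribosomal protein genes also exceeded all genes well below the threshold. Among ribosomal protein genes, 14 of 81 (17.3%) had their strongest region within the first 1000 ranks of the pooled list, against 2.31% of all protein-coding genes. At the other end, 7 ribosomal protein genes (8.64%) had a strongest region among the last 10000 ranks, against 9.98% of all protein-coding genes.

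**Figure D1:**
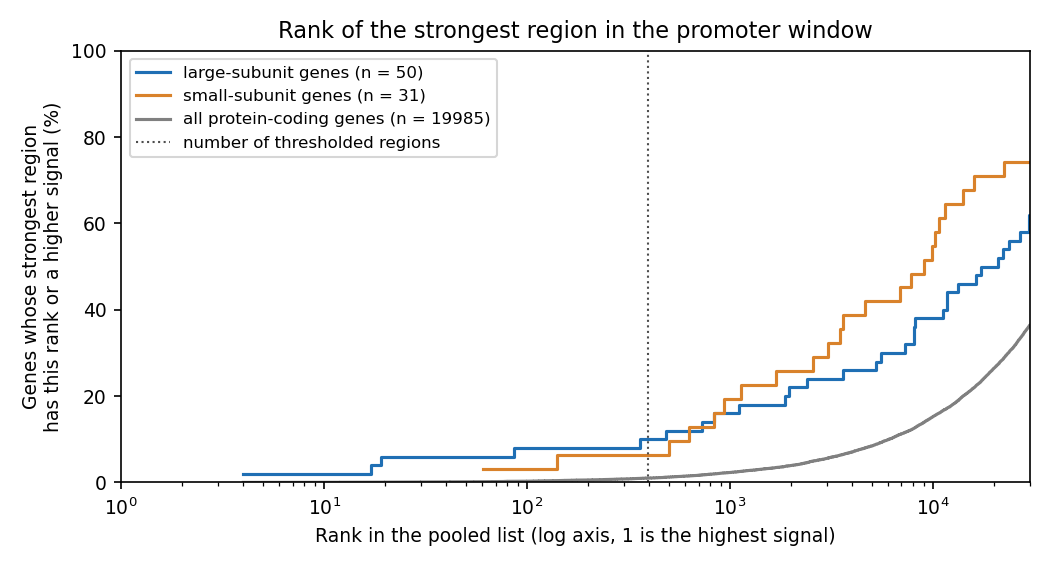
Cumulative share of genes (%) whose strongest region has a given rank or a higher signal in the pooled list (log axis, rank 1 has the highest signal), for 50 large-subunit, 31 small-subunit and all 19985 protein-coding genes, with a dotted line at the 393 thresholded regions. From rank 61 on, both subunits' curves run above that of all genes, and they end at 62% for the large subunit, 74.2% for the small subunit and 36.4% for all genes.

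The strongest region at any ribosomal protein gene was that of rpl-3 (WBGene00004414), whose protein is a core component of the large subunit that reaches towards the peptidyl transferase centre. It lay on chromosome III from 3867462 to 3867655 (ce11), with the summit 298 bp upstream of the 5′ end in intergenic sequence. Its pooled signal was 277.6, the rank was 4 in all 3 full lists, and the signals in the replicates' own lists were 144.5 in replicate 1 and 134.8 in replicate 2. Replicate values below follow in the same order. No other protein-coding gene's window held this summit, and the upstream neighbour acs-19 reads in the same direction 755 bp away. The region was 194 bp wide, narrower than the 390 bp of the other thresholded regions described here.

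Next came rpl-15 (WBGene00004427) and rpl-20 (WBGene00004432), both on chromosome IV and both for structural proteins of the large subunit. For rpl-15 the pooled signal was 196.5 (rank 17), the replicates had 90.5 and 109.4, and the summit lay 339 bp upstream. For rpl-20 the pooled signal was 190.1 (rank 19), the replicates had 77.7 and 109.5, and the summit lay 286 bp upstream. Replicate 2 was the higher library at both genes. Each summit was in the window of a second gene too, which reads in the opposite direction, K11H12.8 with its 5′ end 475 bp away and Y17G9B.5 with its 5′ end 176 bp away, so at rpl-20 the neighbour's 5′ end was the nearer.

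At rps-1 (WBGene00004470), for a small-subunit protein of the platform where the messenger RNA leaves the ribosome, the pooled signal was 147.0 (rank 61). The replicates had 70.2 and 72.0, the closest pair among the 7 genes. The summit lay 263 bp upstream on chromosome III, inside the overlapping noncoding RNA genes F56F3.10 and F56F3.11, and 505 bp from the 5′ end of ifet-1, a translational repressor gene that reads the other way. A second pooled region in the rps-1 window, 893 bp upstream, had a signal of 64.0 and rank 1943.

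Both remaining large-subunit genes of the 7 had lower signals. At rpl-35 (WBGene00004449), whose protein sits near the exit of the peptide tunnel, the pooled signal was 133.0 (rank 86), the replicates had 61.1 and 68.8, and the summit lay 458 bp upstream on chromosome III. No other gene's window held it. At rpl-12 (WBGene00004424), whose protein forms the base of the stalk that binds translation factors, the pooled signal was 94.1 (rank 361), just above the lowest thresholded signal of 92.1. The replicates had 34.4 (rank 3014) and 57.4 (rank 223), so rpl-12 stood among the 393 highest regions of replicate 2 and not of replicate 1. Its summit on chromosome IV lay 5 bp upstream of the 5′ end and 388 bp from that of lin-54, a cell cycle transcription factor gene that reads the other way.

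The sequences around these summits are shown because they lie in thresholded regions. That of rps-26, described further below, is left out, although its pooled signal (118.5) was above that of rpl-12 (94.1). Each runs 5′ to 3′ on the strand of the gene, from 100 bp before to 100 bp after the summit, in the RefSeq genome of WBcel235 (ce11). Capitals mark AAGTGTAT, CGCTCCAC, CGAGTGT and TACGGTA on either strand.
rpl-3 (chrIII:3867456-3867656, plus strand): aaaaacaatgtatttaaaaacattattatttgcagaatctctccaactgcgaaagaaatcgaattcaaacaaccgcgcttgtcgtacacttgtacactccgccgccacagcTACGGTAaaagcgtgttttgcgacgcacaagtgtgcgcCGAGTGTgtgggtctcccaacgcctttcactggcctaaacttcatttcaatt
rpl-15 (chrIV:654815-655015, minus strand): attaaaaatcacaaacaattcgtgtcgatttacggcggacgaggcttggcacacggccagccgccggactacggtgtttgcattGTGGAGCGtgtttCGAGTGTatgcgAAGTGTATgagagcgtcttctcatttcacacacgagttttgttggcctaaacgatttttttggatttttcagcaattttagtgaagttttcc
rpl-20 (chrIV:4749964-4750164, minus strand): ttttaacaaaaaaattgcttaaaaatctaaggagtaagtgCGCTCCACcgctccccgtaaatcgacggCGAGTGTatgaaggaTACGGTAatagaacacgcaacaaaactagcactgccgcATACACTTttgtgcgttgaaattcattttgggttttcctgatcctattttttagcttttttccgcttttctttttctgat
rps-1 (chrIII:4475555-4475755, plus strand): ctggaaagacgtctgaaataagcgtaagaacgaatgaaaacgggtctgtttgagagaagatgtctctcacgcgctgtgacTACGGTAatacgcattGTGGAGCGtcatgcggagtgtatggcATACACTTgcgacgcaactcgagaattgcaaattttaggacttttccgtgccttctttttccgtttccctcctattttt
rpl-35 (chrIII:7854576-7854776, plus strand): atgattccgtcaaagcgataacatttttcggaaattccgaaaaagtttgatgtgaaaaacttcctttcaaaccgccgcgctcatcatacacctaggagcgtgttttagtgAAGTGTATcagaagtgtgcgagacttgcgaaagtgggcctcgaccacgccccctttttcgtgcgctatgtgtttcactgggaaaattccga
rpl-12 (chrIV:13240556-13240756, minus strand): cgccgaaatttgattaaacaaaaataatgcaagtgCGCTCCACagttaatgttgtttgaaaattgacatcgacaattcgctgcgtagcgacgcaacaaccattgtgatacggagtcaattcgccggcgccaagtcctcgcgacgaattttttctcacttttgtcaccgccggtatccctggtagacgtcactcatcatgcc

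The 4 marked words were picked by scanning the windows themselves, so their counts are descriptions and carry no test. Of all words of 8 letters on either strand, AAGTGTAT and CGCTCCAC were the 2 found in at least 4 of the 7 windows. The seventh window, that of rps-26, is not printed here and held none of the 4 marked words. AAGTGTAT was in the windows of rpl-15, rpl-35, rpl-20 and rps-1, each time downstream of the summit, where it began 9, 10, 21 and 22 bp towards the gene. It was in 0 of the 46 windows of other listed ribosomal protein genes, in 0.797% of 6521 windows of other protein-coding genes and in 0 of the 157 thresholded windows among these. CGCTCCAC was in the windows of rpl-12, rpl-15, rpl-20 and rps-1, at the summit of rps-1 and up to 65 bp upstream of it elsewhere. It was in 0 of the 46 other ribosomal windows, in 0.782% of the 6521 windows and in 4 of the 157 thresholded ones. A match shows letters in a window and not a site of binding.

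The words CGAGTGT and TACGGTA were the 2 with the highest ratio to other genes among 78 words of 7 letters found in at least 8 of the 53 distinct ribosomal windows. CGAGTGT, which shares the letters AGTGT with AAGTGTAT, was in 3 of the 7 windows (rpl-3, rpl-15 and rpl-20), in 8 of the other 46 (17.4%) and in 1.59% of the windows of other genes. TACGGTA was in 3 of the 7 (rpl-3, rpl-20 and rps-1), in 6 of the other 46 (13.0%) and in 2.67% of the windows of other genes. In the 500 bp before the outermost 5′ end, CGAGTGT was in 17 of 81 ribosomal protein genes (21.0%), against 2.55% of 19892 other genes. It was there in 16 of the 54 listed ribosomal protein genes (29.6%) and in 1 of the 27 others (3.70%), while TACGGTA was in 13 of the listed genes (24.1%) and 4 of the others (14.8%). Both words were picked from windows that only listed genes have. A higher share in listed than in unlisted genes is thus in part set by that choice. Of 397 words of 7 letters found in at least 16 of the 81 promoters, the 4 with the highest ratio to other genes are given here: GCGAGAC was in 32.1% of ribosomal protein genes, against 3.82% of other genes. The word GGCCTAA was in 28.4%, against 2.83% of other genes, and its share was 25.9% in listed and 33.3% in unlisted ribosomal protein genes. The word CACTCGT, which on the other strand shares most of its letters with CGAGTGT, was in 23.5%, against 2.65%, and CGCAGCG was in 19.8%, against 2.06%.

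A further 7 words, chosen with results of the whole data set known, were counted in the same windows on either strand. TATAAA, the core of the TATA box, was in 2 of the 53 ribosomal windows (3.77%), against 16.2% of 6574 windows of all protein-coding genes. TTTCAG, the worm splice acceptor, was in 41.5% of ribosomal windows, against 30.8% of all. GAGAGA was in 20.8%, against 17.6%, and CGAGAG, which overlaps it, in 15.1%, against 10.6%. TGATAA, bound by the GATA family of factors, was in 13.2%, against 14.6%. AGGTCA, the half-site of many nuclear hormone receptors, was in 4 windows (7.55%), against 5.80%, and CACGTG, the E-box, in 3.77%, against 4.56%. None of the 7 thresholded ribosomal windows held AGGTCA, while 12 of 164 thresholded windows of all genes did (7.32%). The median GC content was 42.3% in ribosomal windows, against 40.3% in all windows, and 45.3% in the 7 thresholded ribosomal windows, as in the 164 thresholded windows of all genes. With 200 bp to each side of the summit the order turned, with 38.2% in ribosomal windows, against 38.9% in all.

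The last of the 7 genes, rps-26 (WBGene00004495) on chromosome I, differed from the others in position. Its protein lines the messenger RNA exit channel of the small subunit. The region from 14758795 to 14759184 had a pooled signal of 118.5 (rank 140), with its summit 940 bp upstream of rps-26 in a coding exon of tmem-107, which reads the other way. The replicates had 77.3 (rank 62) and 45.8 (rank 616), so this region was among the 393 highest of replicate 1 and not of replicate 2. The snoRNA gene F39B2.14 lay 188 bp from the summit, and its part in the signal was not tested. A second pooled region, 403 bp upstream of rps-26, had a signal of 58.5 and rank 2943.

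**Figure D2:**
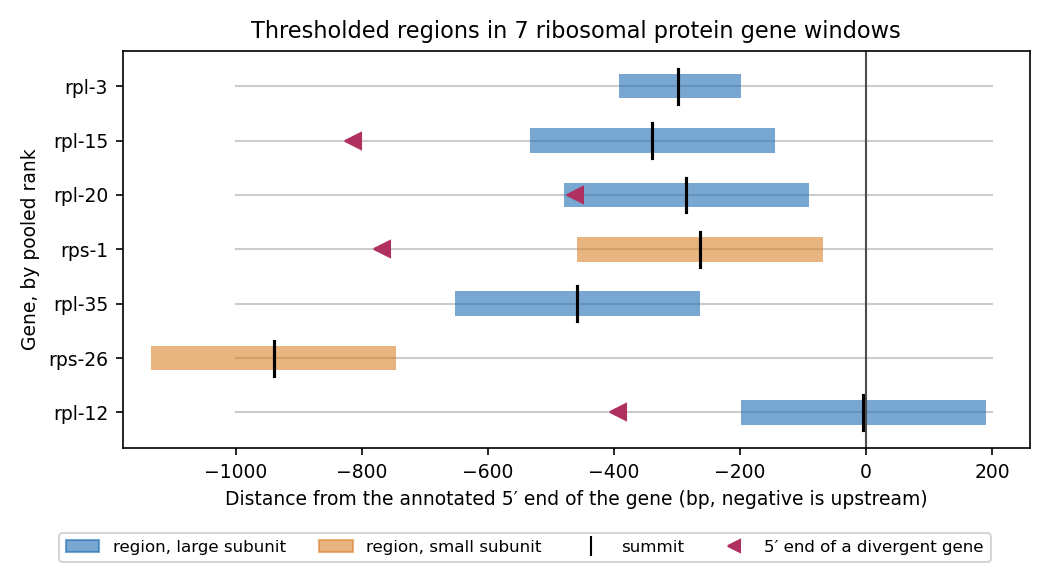
Regions (bars) and summits (black lines) in the promoter windows of the 7 genes with a thresholded summit, by distance from the annotated 5′ end of the gene (bp, negative is upstream). Triangles mark the 5′ end of a divergent gene only where that gene's own window also holds the summit. The divergent neighbour of rps-26, tmem-107, with a gap of 456 bp, therefore has no triangle. Of the 7 summits, 5 lie between 263 and 458 bp upstream, that of rpl-12 lies 5 bp upstream and that of rps-26 lies 940 bp upstream.

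Over the 2 replicates, the mean signal was 140 ± 6.86 at rpl-3, 99.9 ± 13.4 at rpl-15, 93.6 ± 22.5 at rpl-20, 71.1 ± 1.28 at rps-1, 65.0 ± 5.47 at rpl-35, 61.6 ± 22.3 at rps-26 and 45.9 ± 16.3 at rpl-12 (SD, n = 2 each). The values of rpl-3 in both replicates were above those of every other ribosomal protein gene. Those of rpl-15 and rpl-20 overlapped, as did those of rps-26 with rps-1, rpl-35 and rpl-12, so their order is not set apart from the spread between replicates. In the 393 highest regions of replicate 1 there were 7 ribosomal protein genes, against 0.891% of all protein-coding genes: rps-11 stood in for rpl-12. In replicate 2 there were 6, against 1.03% of all protein-coding genes. The genes in both sets numbered 5, rpl-3, rpl-15, rpl-20, rpl-35 and rps-1 (6.17%, against 0.485% of all protein-coding genes).

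Below the threshold, the large-subunit genes with the highest pooled signal were rla-1, rpl-43, rpl-24.1, rpl-16 and rpl-13. At rla-1, for an acidic protein of the stalk, the pooled signal was 87.2 (rank 483), and the replicates had 46.2 and 38.0, with the summit in the gene's own coding exon 116 bp downstream of the 5′ end. The strongest replicate 2 region with a summit inside the rla-1 window had 28.6. At rpl-43 the pooled signal was 79.1 (rank 727), with 33.6 and 46.4 in the replicates, 732 bp upstream and only 189 bp from the 5′ end of Y48B6A.1. The gene rpl-24.1, for a protein of the bridge between the subunits, shares its strongest region with rps-10, for a protein of the head of the small subunit. The pair diverge from 5′ ends 609 bp apart, and the region between them had a pooled signal of 76.8 (rank 831) and 41.0 and 33.1 in the replicates, with the summit 217 bp from rpl-24.1 and 393 bp from rps-10. At rpl-16 the pooled signal was 72.0 (rank 1110), with 38.8 and 36.4 in the replicates, 118 bp downstream in the gene's own coding exon. At rpl-13 it was 64.5 (rank 1867), with 19.96 and 36.1 in the replicates, 228 bp upstream. The range of replicate values at each of these genes overlaps that of rpl-12, so rpl-12 does not stand apart from them beyond the spread between replicates.

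Among small-subunit genes below the threshold, rps-12, rps-16, rps-10, rps-19 and rps-11 had the highest pooled signals. At rps-12, whose protein lies in the beak of the subunit, the pooled signal was 86.6 (rank 499), with 39.4 and 48.1 in the replicates, 180 bp upstream and 113 bp from the 5′ end of ska-3. At rps-16, for a head protein whose tail reaches the transfer RNA, the pooled signal was 82.2 (rank 627), with 58.8 and 28.8 in the replicates, in the gene's own intron 162 bp downstream. The replicate 1 value comes from an overlapping region whose summit is outside the window. Inside the window, the strongest region of replicate 1 had 44.0, with its summit 102 bp downstream of the 5′ end. That of replicate 2 had 48.7, at another place 466 bp upstream. At rps-19, a head protein mutated in human Diamond-Blackfan anaemia, the pooled signal was 74.99 (rank 933), with 48.0 and 28.7 in the replicates, 263 bp upstream and 182 bp from hsr-9. At rps-11 it was 71.7 (rank 1137), with 54.5 (rank 297) and 23.5 (rank 10832) in the replicates, 574 bp upstream. Replicate 1 was the higher library at rps-10, rps-19 and rps-11 and replicate 2 at rps-12. At rps-16 replicate 1 was the higher over the pooled region, while the strongest regions inside the window lie at different places.

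**Figure D3:**
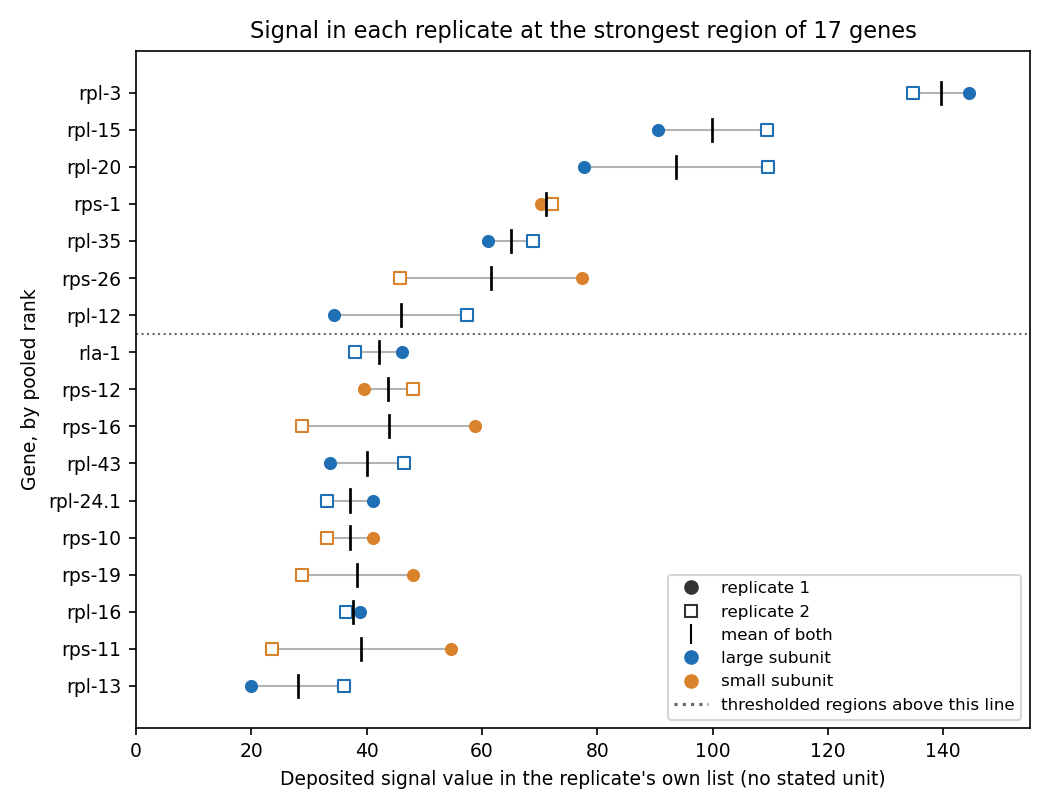
Deposited signal in replicate 1 (filled circles) and replicate 2 (open squares) at the strongest pooled region of the 7 genes with a thresholded summit and of the 5 large-subunit and 5 small-subunit genes next below, with the mean of both as a black line. Values at rpl-3 were 144.5 and 134.8, and the genes below the dotted line spread from 19.96 to 58.8, overlapping with rpl-12 and rps-26.

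The strongest regions of the 54 listed genes were 53 distinct regions, and 33 of these (62.3%) overlapped a region of each replicate list, against 49.9% of the 6574 distinct strongest regions of all protein-coding genes. Across these 33 regions, which share both libraries, the replicates' signals had a Spearman's rho of 0.587, against 0.312 across the 3281 such regions of all protein-coding genes. Signals were within 1.5-fold of each other at 23 of the 33 (69.7%), against 73.3%. By subunit, rho was 0.718 over 17 large-subunit regions and 0.429 over 17 small-subunit regions, with 1 region in both sets.

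The largest differences in rank between the replicates' own lists were at rps-2, rpl-31, rpl-41.2 and rpl-13. At rps-2 the strongest region ranked 26288 in replicate 1, 377 bp upstream, and 1302 in replicate 2, 122 bp upstream, and both regions overlap the strongest pooled region. At rpl-31 it ranked 2357 in replicate 1 and 23147 in replicate 2, and both regions overlap the strongest pooled region. At rpl-41.2 the ranks were 21439 and 2189, at 744 and 809 bp upstream, and at rpl-13 they were 20775 and 1909, at 253 and 228 bp upstream. Replicate 2 gave the higher place at rps-2, rpl-41.2 and rpl-13, and replicate 1 at rpl-31.

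Listed genes of the large subunit without values above were rpl-1, rpl-4, rpl-6, rpl-7, rpl-7A, rpl-9, rpl-11.1, rpl-11.2, rpl-21, rpl-24.2, rpl-25.2, rpl-26, rpl-27, rpl-29, rpl-30, rpl-34, rpl-36.A, rpl-38 and rpl-39. With rpl-31 and rpl-41.2, their pooled ranks ran from 1964 for rpl-6 to 29869 for rpl-26. Those of the small subunit were rps-0, rps-7, rps-8, rps-13, rps-18, rps-20, rps-21, rps-22, rps-23, rps-24, rps-25, rps-27, rps-28, rps-29 and rps-30, which with rps-2 ranked from 1680 for rps-24 to 22458 for rps-30. Not listed were 19 large-subunit genes, rla-0, rla-2, rpl-2, rpl-5, rpl-10, rpl-14, rpl-17, rpl-18, rpl-19, rpl-22, rpl-23, rpl-25.1, rpl-28, rpl-32, rpl-33, rpl-36, rpl-37, rpl-41.1 and rpl-42. The 8 small-subunit genes that were not listed were rps-3, rps-4, rps-5, rps-6, rps-9, rps-14, rps-15 and rps-17. Of these 27 genes, 12 were in neither replicate list, 12 were in 1 of them, and rpl-36, rpl-41.1 and rps-4 were in both. Their nearest pooled summit lay 204 to 2083 bp from a 5′ end, with a median of 786 bp.

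Each replicate's own list gave a similar picture. Replicate 1 listed 49 of the 81 genes (60.5%), against 35.8% of all protein-coding genes. Replicate 2 listed 61 (75.3%), against 37.0%, and 41 (50.6%) were in both lists, against 21.4% of all protein-coding genes. At least 1 of the 3 full lists held 69 of the genes (85.2%), against 53.2% of all. Among listed genes of the pooled list, the strongest region of a ribosomal protein gene had a median percentile of 75.2, where all listed protein-coding genes have 50 by construction and 100 is the highest signal. The same median was 74.6 in replicate 1 and 71.6 in replicate 2. The median pooled signal was 50.9 for listed ribosomal protein genes, against 40.2 for all listed genes.

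Neither subunit was higher in every measure. A listed region was found at 31 of 50 large-subunit genes (62%, exact 95% interval 47.2% to 75.3%) and at 23 of 31 small-subunit genes (74.2%, exact 95% interval 55.4% to 88.1%). A thresholded summit was found at 5 large-subunit genes (10%, exact 95% interval 3.33% to 21.8%) and 2 small-subunit genes (6.45%, exact 95% interval 0.791% to 21.4%). The intervals overlap in both measures, and the order of the subunits is opposite between them. Among listed genes the median percentile was 68.3 for the large and 82.3 for the small subunit in the pooled list, 70.9 for the large and 80.3 for the small subunit in the list of replicate 1, and 72.0 for the large and 70.3 for the small subunit in the list of replicate 2. In the 393 highest regions of a replicate, 4 large-subunit and 3 small-subunit genes appeared in replicate 1, and 5 and 1 in replicate 2. A second pooled region in the window was found at 1 of 31 listed large-subunit genes (3.23%) and at 7 of 23 listed small-subunit genes (30.4%), against 23.3% of all listed genes.

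By chromosome, ribosomal protein genes were concentrated on I, III and IV, which held 25, 18 and 18 of them. Listed shares were 68% on I, against 39.9% of all protein-coding genes there, 72.2% on III, against 41.2%, and 77.8% on IV, against 35.6%. On V 6 of 8 were listed (75%), against 31.6%, and on X 1 of 2, against 38.6%. On II 3 of 10 were listed (30%), against 36.3% of all its protein-coding genes, so with 10 genes this count is near the general share. A thresholded summit was found at 3 of 18 ribosomal protein genes on III (16.7%; rpl-3, rps-1 and rpl-35), against 1.89% of all protein-coding genes there. On IV it was 3 of 18 (16.7%; rpl-15, rpl-20 and rpl-12), against 0.945%, and on I it was rps-26, 1 of 25 (4%), against 1.11%. No ribosomal protein gene on II, V or X had one, where the share of all genes is 0.986%, 0.621% and 0.842%, so with 10, 8 and 2 ribosomal protein genes these counts are near the general share.

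**Figure D4:**
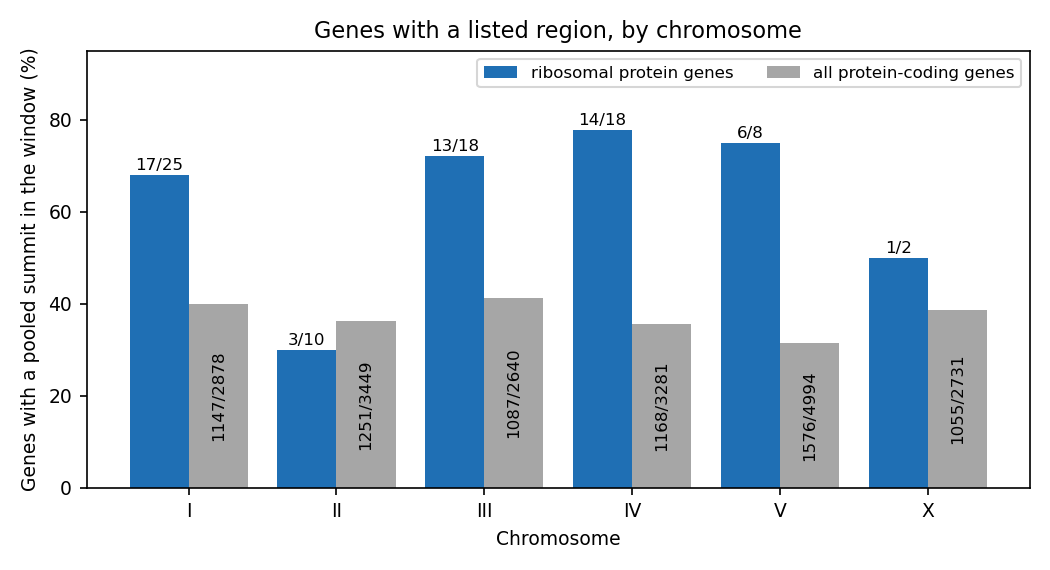
Share of genes with a pooled summit in the promoter window (%), by chromosome, for ribosomal protein genes (left bars) and all protein-coding genes (right bars), with the counts on or above each bar. Ribosomal protein genes exceed all genes on 5 of 6 chromosomes, with 77.8% against 35.6% on IV. On II, 3 of 10 (30%) is near the 36.3% of all genes, and X holds only 2 ribosomal protein genes.

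Summits of the strongest regions lay at a median of 292 bp upstream of the 5′ end for the 54 listed ribosomal protein genes, against 294 bp for all listed genes. The spread was narrower than for all genes: quartiles lay 571.5 and 92.75 bp upstream for ribosomal protein genes, against 632.25 and 20 bp upstream for all. Upstream of the 5′ end lay 44 of the 54 (81.5%), against 77.4% of all, and within 500 bp upstream lay 29 (53.7%), against 43.1%. The fullest stretch was that from 300 to 200 bp upstream, with 11 of 54 summits (20.4%), against 8.66% of all listed genes. It held rpl-3, rpl-20, rps-1, rpl-24.1, rps-19, rpl-13, rpl-6, rps-20, rps-23, rpl-29 and rps-0, and was singled out after the positions were seen. In the list of replicate 2, 38 of 61 ribosomal summits lay within 500 bp upstream (62.3%), against 43.8% of all listed genes. In that of replicate 1 it was 24 of 49 (49.0%), against 43.0%. At the summit itself 24 of the 54 strongest regions were intergenic, 16 were in a coding exon and 6 were in an intron of a gene. The rest were in exons of noncoding RNA genes or in untranslated regions. These places were not counted over all genes, so the counts have no general share beside them.

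**Figure D5:**
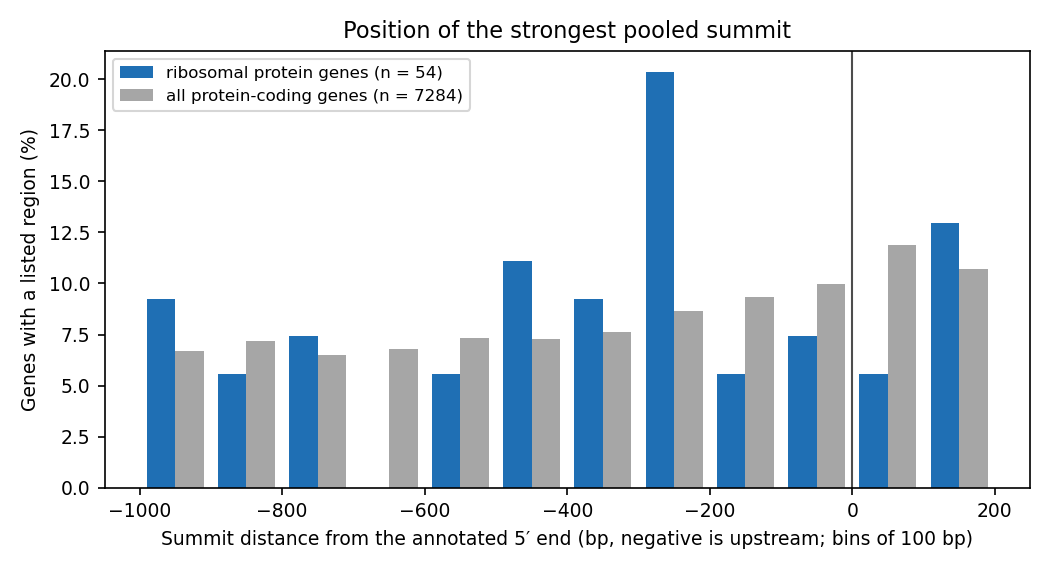
Share of genes with a listed region (%) by the distance of the strongest pooled summit from the annotated 5′ end, in bins of 100 bp, for 54 ribosomal protein genes (left bars) and 7284 protein-coding genes (right bars). The tallest bar is that of ribosomal protein genes from 300 to 200 bp upstream, at 20.4%, where all genes have 8.66%.

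Ribosomal protein genes often share their upstream sequence. The gene upstream reads in the opposite direction at 55 of 81 (67.9%), against 46.2% of all protein-coding genes, and the median gap to it is 557 bp, against 936 bp. Listed and unlisted ribosomal protein genes had similar values, with a divergent neighbour at 68.5% of listed and 66.7% of unlisted genes and a median gap of 536 and 587 bp. A second protein-coding gene's window held the strongest summit at 30 of the 54 listed genes (55.6%), against 21.3% of all listed genes. At 17 of these 30 the ribosomal protein gene had the nearer 5′ end, and at the others the neighbour did, so the region cannot be given to either gene from its position. The pair rps-10 and rpl-24.1 was the only case where both genes were ribosomal.

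Small RNA genes lay near many of the summits. A tRNA, snoRNA or snRNA gene was within 1000 bp of the strongest summit at 13 of 54 listed ribosomal protein genes (24.1%), against 4.06% of all listed genes, and each of the 13 was a snoRNA gene. Within 200 bp there were 3 (5.56%), against 2.27%: rps-26, rps-29 and rpl-7A. Without regions that close, 51 of the 81 genes were listed, against 35.9% of all genes, and 6 of these 51 had a thresholded summit (11.8%), against 2.2% of all listed genes. The part of small RNA genes in these signals was not tested.

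Genes with related roles were counted the same way. Of 70 mitochondrial ribosomal protein genes, which build the separate ribosome of the organelle, 36 were listed (51.4%), against 36.4% of all protein-coding genes, and 2 had a thresholded summit (2.86%), mrps-28 and mrpl-23, against 1.01%. Their pooled signals were 152.3 and 112.8, and both summits lay within 80 bp of a small RNA gene. Of 6 cytosolic elongation factor genes 5 were listed (83.3%, against 36.4%) and 0 had a thresholded summit (against 1.01%), with eef-1G highest at a pooled signal of 77.1. Of 33 ribosome biogenesis genes 29 were in the annotation, 14 of these were listed (48.3%), against the same 36.4%, and pro-1 had a thresholded summit (1 of 29, 3.45%, against 1.01%) with a pooled signal of 95.5. Of ubl-1 and ubq-2, which encode ubiquitin joined to a ribosomal protein, and rack-1, a protein bound to the small subunit, ubq-2 was listed, with a pooled signal of 38.1 at rank 15001. Among listed genes, the median percentile was 64.5 for mitochondrial ribosomal protein genes, 75.5 for elongation factor genes and 80.1 for ribosome biogenesis genes. That of ubq-2 was 42.5. The 75.2 of cytosolic ribosomal protein genes is therefore not particular to them.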

How the data were processed

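Regions came from 2 ChIP-seq libraries of 1 group. Per the deposited notes, the authors derived the 4 lists from alignments of the replicates and of a control to ce11, the WBcel235 assembly. Aligner, peak caller and threshold are not given in the sources used here. Signal, as deposited, has no stated unit and was used to rank regions within a list. The deposited −log10 q value was not used to rank, since it reached 2.59 at most and ties among the highest regions. Fragments were 200 to 800 bp per the labels, and the libraries are separate samples as numbered biological replicates.

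Summits were assigned to genes of Ensembl release 115, and sequence came from the RefSeq genome of WBcel235, with Python 3.11.15, pandas 2.3.3, NumPy 2.4.6, SciPy 1.17.1 and matplotlib 3.10.9. A region of the pooled list was matched to a replicate by overlap. Assignment was tested on simulated regions. The genes, gene lists and words were chosen with earlier results of these data known. Named are all genes with a thresholded summit, the 5 next in each subunit, the 4 with the largest rank difference and, by name, all others. Words found by scanning were chosen after the sequences were seen. Alternatives changed the window, assignment, list and flanks.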

Additional observations from a re-analysis of the deposited data

How the results depend on the processing

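Of 79 values under alternative settings, 61 stayed close to the values reported: counts within 1.5-fold, shares inside the exact 95% interval, medians within the SD between replicates. With a window from 500 bp upstream to 100 bp downstream, 36 ribosomal protein genes were listed, against 22.4% of all genes; 1 small-subunit gene had a thresholded summit, the median percentile was 82.0, and 16 strongest summits lay in another gene's window. With 300 bp upstream to 100 bp downstream, 23 genes were listed, against 17.1% of all genes; 4 had a thresholded summit (3 large-subunit, 1 small-subunit; 17.4% of listed, against 3.04% of all listed genes), the median percentile was 82.2, the median position 217 bp upstream (-217), 7 summits were shared and GC was 40.8%. Fewer summits fit in a narrower window by construction. Counting only the nearest 5′ end left 0 shared summits by construction. Leaving out regions near small RNA genes left 1 small-subunit gene with a thresholded summit. GC was 47.5% with 50 bp and 38.2% with 200 bp to each side; over all genes it was 40.6% and 38.9%, so the direction of the difference turns with the flank.

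With a single replicate's list, its 393 highest regions stood in for the thresholded ones. Genes with such a summit ran from 6 to 7, large-subunit counts from 4 to 5 and small-subunit counts from 1 to 3. The share of listed genes was 9.84% in replicate 2, against 2.79% of all listed genes, and 14.3% in replicate 1, against 2.49%. Listed genes numbered 49 in replicate 1, against 35.8% of all genes, and 61 in replicate 2, against 37%. The median percentile ran from 71.6 to 74.6 and the median position from -305 to -268 bp. Shared summits ran from 27 to 37 and GC from 40.3% to 42.3%. Depth limits are unknown, since the lists hold no read counts.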
